A study of Mus musculus with 36 samples.

Results

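The genes of the elastic fibre and its microfibrils were followed in postnatal mouse kidneys with or without collecting duct deletion of Pkd1 or Pkd2. The 10 genes were Eln, Fbn1, Fbn2, Mfap2, Mfap4, Mfap5, Fbln1, Fbln5, Efemp1 and Ltbp4, chosen by name. They are 10 of the 20454 genes with a symbol in the count table, and 12 of its 29996 RefSeq transcript rows. Where a gene had more than 1 row, the row with the highest mean count over all libraries was used. Kidney RNA was sequenced from Pkd1f/f and Pkd1f/f:HoxB7-Cre mice and from Pkd2f/f and Pkd2f/f:HoxB7-Cre mice, at postnatal day (P) 1, 3 and 7. Each of the 12 groups had 3 libraries, which gave 36 in all. All mice were on the C57BL/6 background, and mice without Cre (WT) were littermate controls of those with Cre (KO). WT mice also carried the floxed alleles. HoxB7-Cre acts in the collecting duct epithelium, but RNA was taken from kidney tissue with all of its cell types, so a smaller number of cells of a type and less RNA per cell cannot be told apart.

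Elastic fibres give recoil to arteries, the lung and the renal pelvis. Tropoelastin, the product of Eln, is cross-linked by lysyl oxidases into a core that lies on a scaffold of fibrillin microfibrils. Fbn1 and Fbn2 encode the fibrillins, with Fbn2 best known from developing tissue, and Mfap2, Mfap4 and Mfap5 encode proteins bound to the microfibril or to elastin. Fibulin-5 (Fbln5) and LTBP-4 (Ltbp4) guide tropoelastin onto the microfibril. Fibulin-1 (Fbln1) lies in the elastic core and in basement membranes, and Efemp1 encodes fibulin-3, a short fibulin of elastic connective tissue. In the kidney, these proteins are known mainly from vessel walls, the interstitium and the wall of the pelvis. Smooth muscle cells and fibroblasts are their usual source.

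The promoters of genes with large or divergent changes are shown first, where a window was kept. RefSeq windows of GRCm38.p6 (the assembly of mm10) run from 250 bases before to 50 bases after a start site. At least 1 window was kept for 6 of the 10 genes. Fbn2 was not among these 6, so its promoter was not examined. Capitals mark matches, on either strand, to a GC box (GGGCGG) or an AP-1 motif (TGANTCA), and the sequences run 5′ to 3′ on the strand of the gene. The Efemp1 and Ltbp4 windows surround the start of the counted transcript, and the Fbn1 and Fbln5 windows surround another RefSeq start close to it.
Efemp1, chr11:28852955-28853254, plus strand: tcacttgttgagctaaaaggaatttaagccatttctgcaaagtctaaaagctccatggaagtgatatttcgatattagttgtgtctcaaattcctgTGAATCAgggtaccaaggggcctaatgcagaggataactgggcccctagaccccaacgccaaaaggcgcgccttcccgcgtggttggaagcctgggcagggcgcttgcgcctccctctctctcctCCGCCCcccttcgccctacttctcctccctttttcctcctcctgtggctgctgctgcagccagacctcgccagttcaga
Fbn1, chr2:125506389-125506688, minus strand: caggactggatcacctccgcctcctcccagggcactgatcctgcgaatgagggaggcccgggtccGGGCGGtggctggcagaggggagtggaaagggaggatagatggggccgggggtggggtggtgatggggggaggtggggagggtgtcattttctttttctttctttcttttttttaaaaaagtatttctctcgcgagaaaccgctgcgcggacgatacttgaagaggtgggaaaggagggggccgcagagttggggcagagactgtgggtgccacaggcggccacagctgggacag
Fbln5, chr12:101819070-101819369, minus strand: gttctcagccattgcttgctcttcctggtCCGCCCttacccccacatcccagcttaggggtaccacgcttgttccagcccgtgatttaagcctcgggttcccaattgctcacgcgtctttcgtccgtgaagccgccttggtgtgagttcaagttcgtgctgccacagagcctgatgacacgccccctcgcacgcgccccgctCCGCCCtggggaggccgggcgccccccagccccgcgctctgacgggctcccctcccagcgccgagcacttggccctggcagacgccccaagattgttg
Ltbp4, chr7:27333614-27333913, minus strand: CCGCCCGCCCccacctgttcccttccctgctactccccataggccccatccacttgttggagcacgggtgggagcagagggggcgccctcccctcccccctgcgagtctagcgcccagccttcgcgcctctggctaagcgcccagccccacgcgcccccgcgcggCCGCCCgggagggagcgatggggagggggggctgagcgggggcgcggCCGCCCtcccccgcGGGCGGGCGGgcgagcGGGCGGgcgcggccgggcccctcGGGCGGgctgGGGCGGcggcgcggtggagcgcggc
Efemp1, which was higher in KO kidneys of both models at P7, had 1 GC box and 1 AP-1 match in its window. Among 32851 windows of the same length, 35.66% held a GC box and 7.808% an AP-1 match. Fbn1 had 1 GC box, Fbln5 had 2, and the window of Ltbp4, with a GC content of 81.3%, had 9. A TATA box (TATAAA, in 13.62% of windows), the TEAD motif GGAATG (14.66%) and a CArG box (1.629%) were not found in these 4 windows. A match describes the letters of a window and not binding.

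Depth and composition were examined over the whole series. The libraries held 7179152 to 15850818 counted reads (median 13143336), and levels are given as CPM (a count scaled to a common library total) after TMM scaling over all 36 libraries. The deleted gene gave no check of the labels in the Pkd1 model, since the log2 fold change of Pkd1 itself at P7 was 0.10 (adjusted p = 0.556 in edgeR's quasi-likelihood test), and Pkd2 fell by 0.29 in Pkd2 KO at P7 (adjusted p = 0.0115). Counts of Y-linked genes were present in 3 of 3 KO and 0 of 3 WT kidneys of the Pkd1 model at P7, so sex and KO cannot be told apart there. In Pkd2 kidneys at P7 they were present in 3 of 3 KO and 2 of 3 WT. Adrenal cortex markers summed to 4809.9 CPM in Pkd2 WT replicate 2 at P3, to 1402 CPM in Pkd1 KO replicate 1 at P7 and to 1254 CPM in Pkd2 KO replicate 3 at P7, against 8.21 to 34.3 CPM in the other 33 libraries. Results that rest on these 3 libraries are also given without them.

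Levels of the genes relative to each other were compared per kilobase of transcript in the 18 WT kidneys. Eln was the highest, with a median of 132 CPM per kb (range 69.2 to 699), and was followed by Mfap4 with 106 (78.2 to 171). The core and an elastin-binding protein thus led. Fbln5 followed at 56.2 CPM per kb and Fbln1 at 47.4. The fibrillins came next, with medians of 35.6 CPM per kb for Fbn1 and 23.7 for Fbn2. Efemp1 had a median of 21.4 CPM per kb and Mfap5 one of 17.9. The ranges of neighbours in this order overlapped, so their order is not fixed beyond the spread of the libraries. Mfap2 was detected at 0 to 6 counts per library and did not reach the minimum for a test, so 9 of the 10 genes were tested. Its 2 RefSeq rows share most of their exons. Ltbp4 also has 2 rows, and the row used here has 309 of its 5118 exonic bases (6.04%) outside the other row. The counter's default leaves out reads that fall on more than 1 row, so the counts of both genes cover only part of their reads and no per-length level is given for them. Genes named Gm30003, Gm41741 and Gm30543 overlap Eln, Fbn2 and Ltbp4, and how their shared reads were counted is uncertain.

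**Figure D1:**
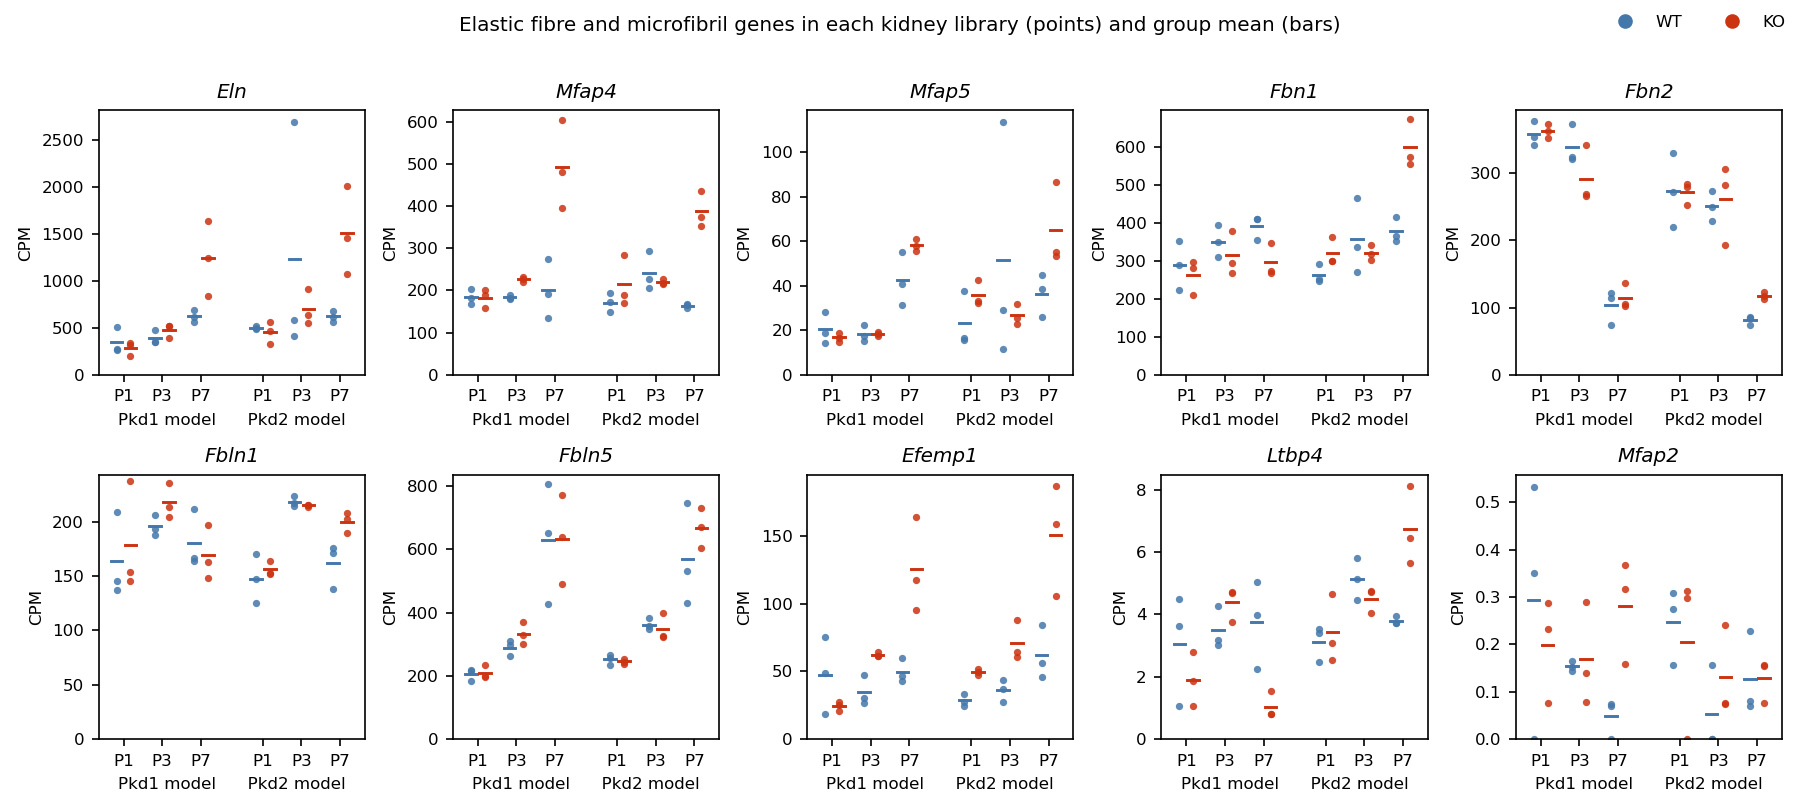
CPM in each of the 36 libraries (points, n = 3 per group) for the 10 genes by age, genotype and model, with a bar at each group mean. At P7 the KO points of Eln, Mfap4 and Efemp1 lie above the WT points in both models, and Fbn2 falls between P3 and P7 in every group.

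The first comparison followed WT kidneys from P1 to P7, to describe the postnatal course on which the KO was set. Fibrillin-2 declined, and fibulin-5 rose, in both models. In edgeR's quasi-likelihood test, 4 of 9 genes passed an adjusted p of 0.05 in Pkd1 WT kidneys (3 higher at P7 and 1 lower) and 3 of 9 in Pkd2 WT kidneys (2 higher and 1 lower). The background was 17.9% of all transcripts tested for Pkd1 WT (8.92% higher and 9.03% lower) and 19.2% for Pkd2 WT (7.95% higher and 11.3% lower).

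Fbn2 had 355, 342 and 379 CPM in Pkd1 WT kidneys at P1 and 114, 121 and 74.1 CPM at P7. In Pkd2 WT kidneys it had 219.5, 273 and 331 CPM at P1 and 84.1, 85.9 and 74.7 CPM at P7. Every P7 library was below every P1 library of its model. The log2 change from P1 to P7 was -1.80 (SE 0.17, adjusted p = 0.000275 by edgeR) in the Pkd1 series and -1.78 (SE 0.14, adjusted p = 0.000317) in the Pkd2 series. At P3 the WT means were still 339.6 ± 29.3 and 251 ± 22.3 CPM (SD, n = 3), so most of the decline lay between P3 and P7. Fbn2 passed in 9 of 9 fits that left out 1 library, in each model.

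Fbn1, the main fibrillin of grown tissue, had log2 changes of 0.43 (SE 0.16, adjusted p = 0.0883) and 0.49 (SE 0.17, adjusted p = 0.0756) and did not pass edgeR's test in either series. In Pkd2 WT it passed without P3 replicate 2, the library with adrenal markers (adjusted p = 0.00916), or without P3 replicate 3 (adjusted p = 0.0343), both of which enter that fit only through the shared spread. The ratio of Fbn2 to Fbn1, each per kilobase, was 1.15 ± 0.320 in Pkd1 WT and 0.925 ± 0.115 in Pkd2 WT kidneys at P1 (SD, n = 3). At P7 it was 0.233 ± 0.0411 and 0.193 ± 0.0172. The 2 fibrillin transcripts were thus near each other per length at P1, and Fbn1 was several times higher at P7.

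Fbln5 had 214, 218 and 185 CPM in Pkd1 WT kidneys at P1 and 652, 428 and 805 CPM at P7. In Pkd2 WT kidneys it had 257, 265 and 234 CPM at P1 and 531, 747 and 431 CPM at P7. The P7 libraries were above the P1 libraries throughout, but they also spread more widely. The log2 changes were 1.60 (SE 0.19, adjusted p = 0.000845 by edgeR) and 1.15 (SE 0.16, adjusted p = 0.00273), and both held in 9 of 9 fits that left out 1 library.

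The other age changes passed in 1 model each. Eln rose by a log2 of 0.83 (SE 0.23, adjusted p = 0.0339) and Mfap5 by 1.04 (SE 0.27, adjusted p = 0.0246 by edgeR) in Pkd1 WT kidneys. Both calls were lost without Pkd1 WT replicate 2 or 3 at P1, or replicate 1 or 3 at P7, with adjusted p values up to 0.113 for Eln and 0.0798 for Mfap5. Efemp1 rose by 1.10 (SE 0.25, adjusted p = 0.0160) in Pkd2 WT kidneys and was lost without replicate 2 or 3 at P1 (adjusted p = 0.0674 and 0.0688). In Pkd2 WT, the log2 change of Eln was 0.28 (SE 0.57, adjusted p = 0.768). Pkd1 WT kidneys had Y-linked counts in 2 of 3 libraries at P1 and in 0 of 3 at P7, and with these as a covariate the Eln and Mfap5 changes no longer passed (adjusted p = 0.0953 and 0.0778). Within an age this covariate varied only among the P1 libraries, so that fit cannot separate sex from age.

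At P7 most of these genes were higher in Pkd2 KO kidneys, and Eln, Mfap4 and Efemp1 were higher in both KO models by log2 values of 1.00 to 1.33. In edgeR's test 4 of 9 genes passed in Pkd1 KO kidneys, 3 higher and 1 lower, and 6 of 9 passed in Pkd2 KO kidneys, all 6 higher. The background at P7 was 13.5% of transcripts in the Pkd1 model (6.32% higher and 7.14% lower) and 14.1% in the Pkd2 model (7.88% higher). The median log2 fold change of the 9 genes was 0.15 for the Pkd1 and 0.84 for the Pkd2 comparison, against 0.00 over all transcripts in either model. The Pkd1 median ran from 0.01 to 0.28 with 1 library left out, lowest without KO replicate 3 and highest without WT replicate 2, and was 0.38 after GC and length correction, under which 5 genes passed. With Y-linked counts as a covariate in one fit of all 18 Pkd1 libraries, 0 of the 9 genes and 6 of all 12527 transcripts passed in Pkd1 KO, and the log2 value of Eln was 0.44. Within the Pkd1 groups these counts varied only among the WT libraries at P1, so the covariate rests on those. The loss of calls in this fit therefore cannot separate sex from KO. KO and WT libraries did not overlap for 6 of the 9 tested genes in the Pkd1 model, where 38.7% of all transcripts tested did not overlap, and for 8 of 9 in the Pkd2 model, where the share was 35.2%.

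**Figure D2:**
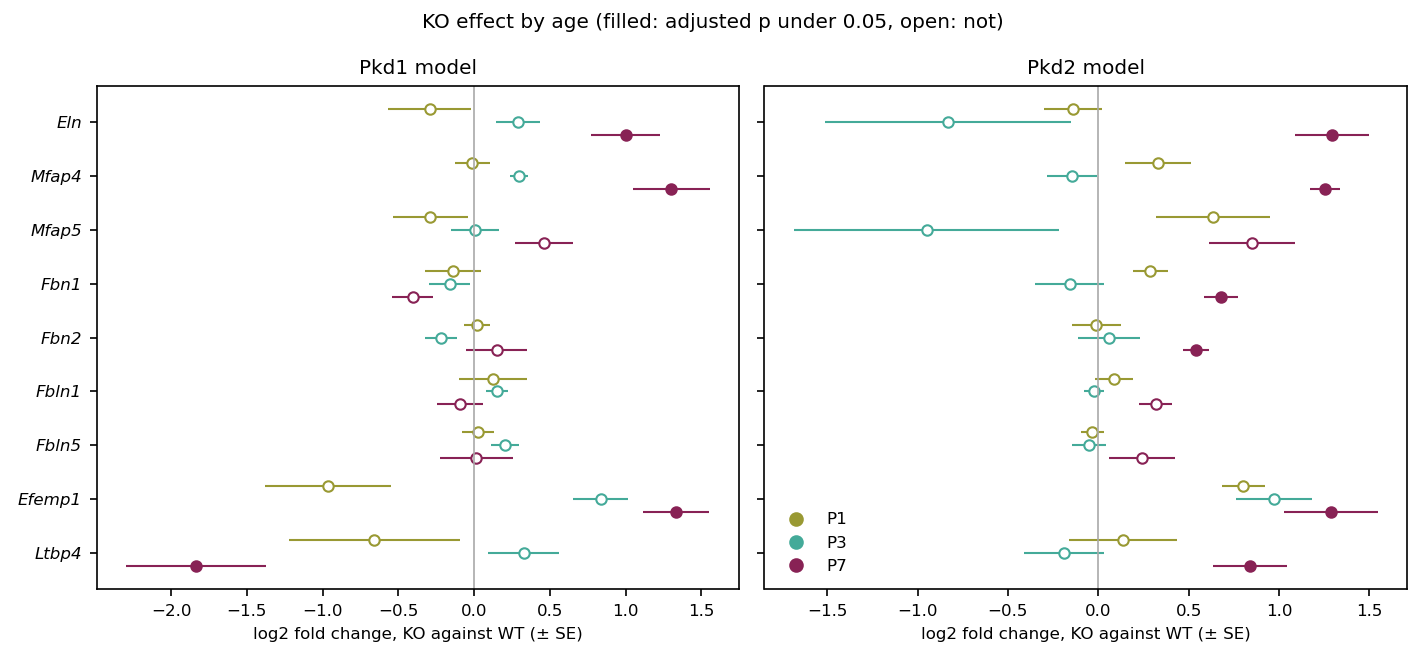
Log2 fold change of KO against WT from edgeR (points, with SE as bars) for the 9 tested genes at P1, P3 and P7 in the Pkd1 and Pkd2 models; filled points passed an adjusted p of 0.05. Filled points occur at P7, with Eln, Mfap4 and Efemp1 above 0 in both models and Ltbp4 on opposite sides of 0.

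Elastin was measured first. Eln had 612, 565 and 688 CPM in Pkd1 WT kidneys and 1248, 837 and 1639 CPM in Pkd1 KO kidneys at P7. In Pkd2 kidneys it had 684, 561 and 619.8 CPM in WT and 1072, 1460.1 and 2008 CPM in KO. Every KO library was above every WT library of its model, and the KO libraries ranged widely while the WT libraries lay close together. The log2 fold change was 1.00 (SE 0.23, adjusted p = 0.0291 by edgeR) in Pkd1 KO and 1.29 (SE 0.20, adjusted p = 0.00700) in Pkd2 KO. The Pkd1 call was lost when any of 4 libraries was left out, WT replicates 1 and 2 (adjusted p = 0.108 and 0.0650) and KO replicates 1 and 3 (adjusted p = 0.0784 and 0.0594), with log2 values of 0.75 to 1.22 over the 6 fits. KO replicate 1 is the library with adrenal markers. The Pkd2 call held in 6 of 6 such fits (1.04 to 1.50), including the one without the adrenal-marker library, but not in a fit of all 18 Pkd2 libraries (log2 1.30, adjusted p = 0.0944).

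Both fibrillins passed as higher in Pkd2 KO kidneys and neither passed in Pkd1 KO kidneys. Fbn1 had 352, 416 and 365 CPM in Pkd2 WT kidneys and 574, 554 and 673 CPM in Pkd2 KO kidneys at P7. In the Pkd1 model it had 410.5, 409 and 354 CPM in WT and 268, 273 and 346 CPM in KO. Thus the KO libraries were above all WT libraries in the Pkd2 model and below all of them in the Pkd1 model. The Pkd2 difference passed (log2 0.68, SE 0.096, adjusted p = 0.00462 by edgeR, 6 of 6 fits with 1 library left out). The Pkd1 difference did not (log2 -0.40, SE 0.14, adjusted p = 0.0791), although DESeq2 called it (adjusted p = 0.0330), and it was -0.04 once GC content and length were corrected for.

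Fbn2 in Pkd2 kidneys at P7 had 84.1, 85.9 and 74.7 CPM in WT and 117, 113 and 123 CPM in KO, without overlap. Its log2 fold change was 0.54 (SE 0.072, adjusted p = 0.00380 by edgeR, 6 of 6 fits with 1 library left out). In Pkd1 kidneys it had 114, 121 and 74.1 CPM in WT and 102, 105 and 136 CPM in KO, which overlapped (log2 0.15, SE 0.20, adjusted p = 0.639). The mean of 118 ± 5.25 CPM in Pkd2 KO at P7 remained below the 272 ± 17.1 CPM of Pkd2 KO at P1 (SD, n = 3), so the decline of Fbn2 with age was also seen in KO kidneys. The per-kilobase ratio of Fbn2 to Fbn1 at P7 was 0.345 ± 0.00495 in Pkd1 KO and 0.176 ± 0.0108 in Pkd2 KO.

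**Figure D3:**
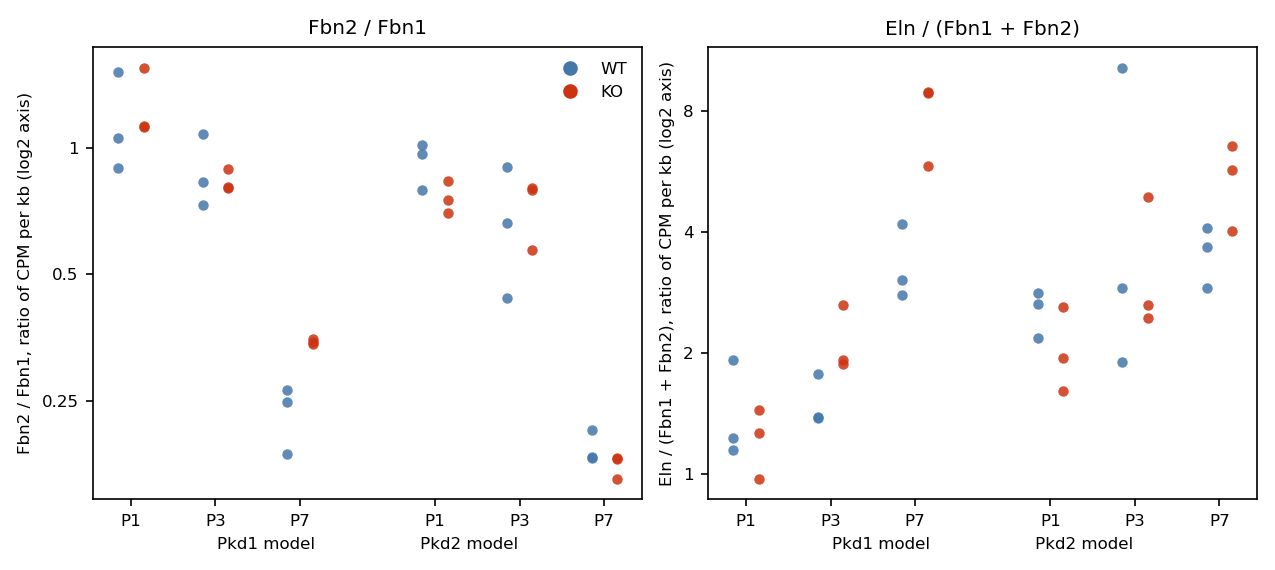
Ratios of levels per kilobase in each library (points, n = 3 per group, log2 axis), Fbn2 to Fbn1 and Eln to the sum of both fibrillins, by age, genotype and model. The Fbn2 to Fbn1 ratio drops between P3 and P7 in every group, and the Eln ratio of P7 KO kidneys spans 5.83 to 8.95 in Pkd1 and 4.04 to 6.56 in Pkd2, against 2.79 to 4.18 and 2.91 to 4.09 in WT.

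Elastin was also set against its scaffold as a ratio, given here as a description with no test. Eln per kilobase divided by the sum of Fbn1 and Fbn2 per kilobase was 1.43 ± 0.427 in Pkd1 WT and 2.55 ± 0.336 in Pkd2 WT at P1, and 3.34 ± 0.740 and 3.56 ± 0.600 at P7 (SD, n = 3). In KO kidneys at P7 it was 7.89 ± 1.78 in Pkd1 and 5.43 ± 1.28 in Pkd2. The Pkd1 KO ratios lay above all WT ratios of P7, and in Pkd2 the lowest KO ratio of 4.04 lay just below the highest WT ratio of 4.09.

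Among the microfibril-associated genes, Mfap4 changed the most. Mfap4 had 191, 135 and 274 CPM in Pkd1 WT kidneys and 394, 604 and 480.1 CPM in Pkd1 KO kidneys at P7. Pkd2 kidneys had 167, 165 and 159 CPM in WT and 435, 353 and 375 CPM in KO. No KO library reached down to a WT library in either model, and the 3 Pkd2 WT values were nearly equal. The log2 fold change was 1.30 in Pkd1 KO (SE 0.26, adjusted p = 0.0191 by edgeR) and 1.25 (SE 0.083, adjusted p = 0.000329) in Pkd2 KO. The Pkd1 call held in 4 of 6 fits and was lost without WT replicate 1 (adjusted p = 0.0826) or KO replicate 2 (adjusted p = 0.0810). The Pkd2 call held in 6 of 6 fits.

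Mfap5, which encodes a glycoprotein of the microfibril surface, had 38.4, 44.6 and 25.9 CPM in Pkd2 WT and 55.2, 53.4 and 86.4 CPM in Pkd2 KO kidneys at P7. In Pkd1 kidneys it had 40.7, 31.5 and 55.0 CPM in WT and 55.7, 61.1 and 58.0 CPM in KO. KO and WT did not overlap in either model, but neither difference passed edgeR's test (log2 0.85, SE 0.24, adjusted p = 0.0512 and log2 0.46, SE 0.19, adjusted p = 0.131). DESeq2 called the Pkd2 difference (adjusted p = 0.00127). Both rows of Mfap2 stayed too low to be tested at any age.

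Of the fibulins, Efemp1 was the gene with the most KO differences. It had 46.4, 59.8 and 43.3 CPM in Pkd1 WT and 164, 117 and 95.1 CPM in Pkd1 KO kidneys at P7. Pkd2 kidneys had 56.1, 45.8 and 84.6 CPM in WT and 106, 159 and 187 CPM in KO. The groups did not overlap in either model. The log2 fold change was 1.33 (SE 0.22, adjusted p = 0.0123 by edgeR) in Pkd1 KO and 1.29 (SE 0.26, adjusted p = 0.0167) in Pkd2 KO. The Pkd1 call held in 5 of 6 fits and was lost without WT replicate 1 (adjusted p = 0.0597). The Pkd2 call held in 3 of 6 and was lost without WT replicate 1 (adjusted p = 0.0788), KO replicate 2 (adjusted p = 0.0645) or KO replicate 3, the library with adrenal markers (log2 1.11, adjusted p = 0.0618).

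The fibulins with a role in the elastic core did not pass at P7. Fbln5 had log2 fold changes of 0.01 (SE 0.24, adjusted p = 0.974) in Pkd1 KO and 0.24 (SE 0.18, adjusted p = 0.423) in Pkd2 KO by edgeR, and KO and WT libraries overlapped in both. Its means at P7 were 628 ± 189.7 CPM in WT and 634 ± 140.3 CPM in KO of the Pkd1 model, and 569.7 ± 161 and 668 ± 63.0 CPM in the Pkd2 model (SD, n = 3). Fbln1 had the smallest ratio of highest to lowest level of the 8 genes with a per-length level, 1.90 (125 to 237 CPM over the 36 libraries). It had 171, 175 and 138 CPM in Pkd2 WT and 202, 208 and 189.7 CPM in Pkd2 KO at P7, without overlap but not past edgeR's test (log2 0.32, SE 0.092, adjusted p = 0.0569). DESeq2, and edgeR with the replicate number as a block, placed it past the threshold (adjusted p = 0.0184 and 0.0349).

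Ltbp4 was the only gene of the 10 with a call in opposite directions, in the row used here, and its counts were low. This row had 57, 74 and 30 counts in Pkd1 WT and 10, 10 and 21 counts in Pkd1 KO kidneys at P7. Pkd2 kidneys had 49, 56 and 46 counts in WT and 73, 107 and 83 counts in KO. The KO libraries lay below all WT libraries in the Pkd1 model and above them in the Pkd2 model. In the other row of Ltbp4, KO and WT overlapped in both models at P7. It had 7, 6 and 3 counts in Pkd1 WT and 1, 7 and 2 in Pkd1 KO. Pkd2 kidneys had 3, 8 and 11 counts of it in WT and 4, 11 and 7 in KO. For the row used, the log2 fold change was -1.84 (SE 0.46, adjusted p = 0.0380 by edgeR) in Pkd1 KO and 0.84 (SE 0.20, adjusted p = 0.0318) in Pkd2 KO. Each call held in 2 of 6 fits with 1 library left out, with log2 values of -2.23 to -1.56 and 0.69 to 0.96. Both were lost without WT replicate 1 (adjusted p = 0.124 and 0.108), WT replicate 2 (0.0947 and 0.0702) or KO replicate 2 (0.133 and 0.0998), the Pkd1 call also without KO replicate 1 (0.107) and the Pkd2 call also without KO replicate 3 (0.0742).

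The number of rows per gene moved with the direction of Ltbp4 in the Pkd1 model. Among transcripts with a mean count under 100 in Pkd1 kidneys, the 1425 of genes with at least 2 RefSeq rows had a median log2 fold change of -0.48 at P7, with 9 called higher and 69 lower. The 2175 of genes with 1 row had a median of 0.13, with 96 higher and 81 lower. In the Pkd2 model the medians were -0.06 (1449 transcripts) and 0.00 (2251 transcripts). At P1 in the Pkd1 model both medians were -0.03. Low rows of multi-row genes were thus lower in Pkd1 KO at P7 as a class, and the part of this in the value of Ltbp4 was not tested.

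At P7 smooth muscle markers were higher in KO kidneys of both models, as were Eln, Mfap4 and Efemp1. The background of transcripts passing as higher at P7 was 6.32% in Pkd1 KO and 7.88% in Pkd2 KO. Of 6 smooth muscle markers, 4 could be tested, and Acta2, Tagln, Cnn1 and Actg2 all rose at P7, by log2 values of 1.42, 1.97, 3.46 and 4.70 in Pkd1 KO and 1.75, 1.90, 2.61 and 2.96 in Pkd2 KO. Myh11 and Smtn, the other 2, have 2 and 5 RefSeq rows and were listed at 0 in 27 and 19 of the 36 libraries. The summed level of the 6 markers at P7 was 1262 to 1392 CPM in Pkd1 WT and 4048 to 4257 CPM in Pkd1 KO, and 1148 to 1271 CPM in Pkd2 WT and 4080 to 4604 CPM in Pkd2 KO. The KO sums thus lay far above the WT sums in both models at P7. At P1 it was 618 to 1111 CPM in Pkd1 WT and 699 to 975 CPM in Pkd1 KO, and at P3 573 to 1068 and 857 to 1118 CPM. The Pkd1 genotypes thus overlapped before P7. For Pkd2 it was 730 to 887 CPM in WT and 700 to 2103 CPM in KO at P1, and 695 to 1217 and 1211 to 1547 CPM at P3. The value of 2103 CPM belongs to KO replicate 2 at P1, and KO replicates 1 and 3 had 700 and 1365 CPM. Replicate 2 also had the highest sum of urothelial markers of all libraries, 542 CPM. The part of the smooth muscle transcripts in the P7 differences was not tested.

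**Figure D4:**
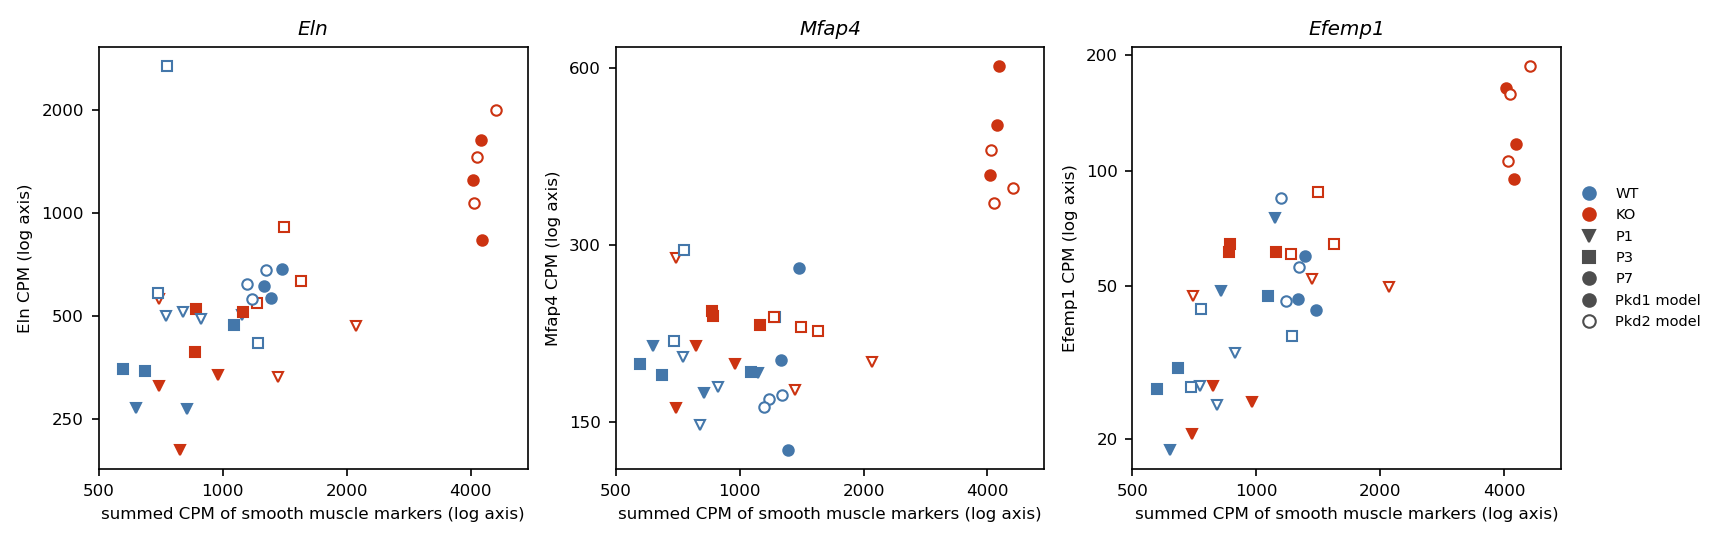
CPM of Eln, Mfap4 and Efemp1 in each library against the summed CPM of 6 smooth muscle markers (both axes logarithmic), by age and genotype. The 6 P7 KO libraries lie apart at 4048 to 4604 CPM of smooth muscle markers and hold high values of the 3 genes, and Pkd2 WT replicate 2 at P3 has the highest Eln at 2693 CPM.

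Other cell types were read from their own marker lists. The background of transcripts passing at P7 was 13.5% in Pkd1 KO and 14.1% in Pkd2 KO. The summed fibroblast and pericyte markers at P7 were 4843 to 6521 CPM in WT and 4674 to 5858 CPM in KO of the Pkd1 model, and 5384 to 5595 and 5879 to 7569 CPM in the Pkd2 model. Pdgfrb, a defining pericyte marker with 2 RefSeq rows, was listed at 0 in 36 of 36 libraries, as were the endothelial markers Pecam1 and Tek with 4 and 3 rows, and since reads shared between rows are left out these zeros do not show absence. These sums consist mostly of the collagen genes Col1a1 and Col3a1. Of the 3 fibroblast markers that could be tested, 0 passed in Pkd1 KO by edgeR, and in Pkd2 KO Col1a1 was higher (log2 0.89), Lum was lower (-1.21) and Col3a1 had a value of 0.09. Endothelial markers summed to 740 to 925 CPM in Pkd1 WT and 562 to 705 CPM in KO, and to 759 to 981 and 558 to 665 CPM in the Pkd2 model. Of 3 tested endothelial markers 0 passed in Pkd1 KO, and 2 were lower in Pkd2 KO, Kdr (log2 -0.44) and Plvap (-0.68). Proximal tubule markers were lower in KO, at 1384 to 2448 against 4313 to 5114 CPM in Pkd1 and at 2912 to 3046 against 4329 to 5316 CPM in Pkd2, and 4 of 5 and 5 of 5 of them passed as lower. In the collecting duct, where Cre acts, 4 of 6 markers could be tested, of which 2 were higher and 2 lower in Pkd1 KO and 1 was higher and 2 lower in Pkd2 KO. The water channel genes Aqp2 (log2 -2.27 and -2.38) and Aqp3 (-1.19 and -0.87) were the lower ones, the keratin gene Krt8 was higher in both models (1.07 and 0.71), and Hoxb7, from whose promoter Cre is driven, was higher in Pkd1 KO (0.52) with a value of -0.04 in Pkd2 KO. The part of these shifts in the levels of the elastic fibre genes was not tested.

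At P1 and P3 the question was whether any of these genes differed before P7. By edgeR, 0 of 9 genes passed in each of the 4 comparisons. The background was 0% of transcripts in Pkd1 KO at P1, 0.00798% at P3, and 0% in Pkd2 KO at P1 and at P3. At an unadjusted p under 0.05 there were 1 and 2 genes in Pkd1 KO at P1 and P3 (157 and 1748 of all 12527 transcripts), and 2 and 1 in Pkd2 KO (708 and 565 of 12633). DESeq2 called 0 and 2 genes in Pkd1 KO, where it called 0.016% and 1.7% of transcripts, and 1 and 1 in Pkd2 KO, where it called 0.261% and 0.301%. All KO libraries lay above all WT libraries for 0 of 9 genes in Pkd1 kidneys at P1 and for 2 at P3, against 3.03% and 10.1% of transcripts, and for 2 and 1 in Pkd2 kidneys, against 5.65% and 4.95%.

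Efemp1 was the gene behind most of these. At P3 it had 27.0, 47.1 and 30.5 CPM in Pkd1 WT and 61.5, 61.3 and 64.5 CPM in Pkd1 KO kidneys. In Pkd2 kidneys at P1 it had 33.5, 24.6 and 27.5 CPM in WT and 47.2, 49.6 and 52.1 CPM in KO. At P3 it had 37.2, 43.7 and 27.4 CPM in Pkd2 WT and 88.1, 60.5 and 64.3 CPM in Pkd2 KO. In these 3 comparisons every KO library was above every WT library. The log2 fold changes were 0.84 (SE 0.18), 0.80 (SE 0.12) and 0.97 (SE 0.21), with adjusted p values of 0.166, 0.476 and 0.940 by edgeR and of 0.00122, 0.000101 and 0.00610 by DESeq2. At P1 in the Pkd1 model, 75.1, 48.6 and 18.7 CPM in WT and 24.9, 20.6 and 27.5 CPM in KO overlapped (log2 -0.96, SE 0.41, adjusted p = 1 by edgeR).

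Mfap4 at P3 in Pkd1 kidneys had 188, 183 and 180.2 CPM in WT and 219, 232 and 228 CPM in KO, which did not overlap (log2 0.30, SE 0.057, adjusted p = 0.152 by edgeR and 0.00930 by DESeq2). Eln at P3 in Pkd2 WT kidneys had 417, 2693 and 585 CPM, and 908, 546 and 635 CPM in KO. The value of 2693 CPM belongs to the library with 4809.9 CPM of adrenal markers, which also had the highest Mfap5 level at 114 CPM. With this library the log2 fold change of Eln was -0.83 (SE 0.68, adjusted p = 0.940), and without it 0.48 (adjusted p = 0.923 by edgeR).

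Whether the KO effect changed between P1 and P7 was tested as an interaction, which uses the same P7 libraries as above. In the Pkd1 model 3 of 9 genes passed by edgeR, against a background of 7.75% of transcripts (3.66% higher), and all 3 were higher at P7. The KO effect on Eln was higher at P7 by a log2 of 1.28 (SE 0.37, adjusted p = 0.0440), on Mfap4 by 1.31 (SE 0.27, adjusted p = 0.0102) and on Efemp1 by 2.29 (SE 0.48, adjusted p = 0.0123). The log2 fold changes at P1 were -0.29 for Eln, -0.01 for Mfap4 and -0.96 for Efemp1, so part of the Efemp1 difference came from P1. Mfap4 and Efemp1 passed in 18 of 18 fits with 1 library left out and Eln in 5 of 18. In the Pkd2 model 0 of 9 passed by edgeR, against 1.3% of transcripts, with 3 at an unadjusted p under 0.05 and 1 by DESeq2, which called 3.67% of transcripts. There the values were 0.93 for Mfap4 (SE 0.23, adjusted p = 0.0638), 1.44 for Eln (SE 0.69, adjusted p = 0.333) and 0.49 for Efemp1 (SE 0.34, adjusted p = 0.523). Without Pkd2 WT replicate 2 at P3, the library with the most adrenal markers, Mfap4 and Eln passed (adjusted p = 0.0294 and 0.0303) with the same log2 values. Mfap4 also passed without Pkd2 KO replicate 1 at P1 (log2 1.19, adjusted p = 0.00519) and without both Pkd2 libraries with adrenal markers (log2 0.96, adjusted p = 0.0458). Y-linked counts are present in 2 of 3 WT and 0 of 3 KO kidneys of the Pkd1 model at P1, the reverse of P7, and with them as a covariate 0 of the 9 genes and 0 of all 12527 transcripts passed in that model. Within a group this covariate varied only in Pkd1 WT at P1, so the fit cannot separate sex from the KO effect.

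The KO effects of the 2 models at P7 were compared directly. Y-linked counts were present in all KO and no WT libraries of Pkd1 at P7, and in all KO and 2 WT libraries of Pkd2. Sex and a difference between the models therefore cannot be told apart here. By edgeR, 0 of 9 genes differed, as did 0% of the 12343 transcripts tested, with 2 genes at an unadjusted p under 0.05. The 2 were Ltbp4, with a Pkd1 minus Pkd2 difference of -2.67 (SE 0.48, adjusted p = 0.105), and Fbn1, with -1.07 (SE 0.17, adjusted p = 0.105), and DESeq2, which called 3.16% of transcripts, called both (adjusted p = 0.000302 and 1.14e-05). Without Pkd1 WT replicate 3 or Pkd1 KO replicate 3 edgeR also called both, with adjusted p values of 0.00731 and 0.0462 for Ltbp4 and 0.00818 and 0.0131 for Fbn1. The limits given above for the low row of Ltbp4, and for Fbn1 in Pkd1 KO under GC and length correction, also apply to these values. For Eln, Mfap4 and Efemp1 the differences were -0.28 (SE 0.34), 0.06 (SE 0.30) and 0.06 (SE 0.38), and these errors leave room for differences in either direction.

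Other genes of elastic fibre assembly and turnover were read at P7 from lists of 53 genes. In Pkd1 KO 7 of 38 tested genes were higher and 7 lower (median log2 -0.04), and in Pkd2 KO 17 of 37 were higher and 3 lower (median 0.31), against the medians of 0.00 over all transcripts. The background was 6.32% of transcripts higher and 7.14% lower in Pkd1 KO. In Pkd2 KO 14.1% passed in all, with 7.88% higher. Among the 4 tested cross-linking enzymes, which join tropoelastin chains, 1 was higher in Pkd1 KO and 3 in Pkd2 KO, with medians of 0.23 and 1.08. Lox, among those called in Pkd2 KO, has 3 rows and low mean levels (1.34 CPM in WT and 3.73 CPM in KO). Loxl1, the lysyl oxidase best known for elastin, was the one that passed in both models (log2 1.06 and 1.49). Of 6 other latent TGF-beta binding proteins and TGF-beta ligands, 4 were higher in each model and 1 was lower in Pkd1 KO, with medians of 0.69 and 0.73. They included Tgfb1, Tgfb2, Tgfb3 and Ltbp2. Ltbp2, which binds fibrillin-1 microfibrils, had the largest called rise of these lists, from 2.69 ± 1.62 to 19.5 ± 4.65 CPM in Pkd1 (log2 2.87, SE 0.47, adjusted p = 0.0126 by edgeR) and from 2.63 ± 0.781 to 26.1 ± 3.39 CPM in Pkd2 (log2 3.32, SE 0.22, adjusted p = 0.000329; SD, n = 3).

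The remaining lists moved less or in both directions. For these small counts the P7 background was again 13.5% of transcripts in Pkd1 KO and 14.1% in Pkd2 KO. Of 3 other fibulins and hemicentins, 0 passed in Pkd1 KO and 1 was higher in Pkd2 KO, and of 3 emilins and multimerins 1 was higher and 1 lower in Pkd1 KO and 1 was higher in Pkd2 KO. Of 5 tested ADAMTS and ADAMTS-like genes, whose products bind microfibrils, 2 were lower in Pkd1 KO, and 3 were higher and 1 lower in Pkd2 KO. Adamts17 passed as lower in both models, with the largest called fall of these lists in Pkd2 KO, from 127 ± 18.7 to 59.4 ± 11.1 CPM (log2 -1.09, SE 0.15, adjusted p = 0.00440 by edgeR) and a log2 of -1.43 in Pkd1 KO. Of 6 elastin-degrading proteases 0 passed in Pkd1 KO, and 1 was higher and 1 lower in Pkd2 KO. Of 4 matrix partners 2 were lower in Pkd1 KO, and 2 were higher and 1 lower in Pkd2 KO. Among RGD-binding integrins, the receptors for fibulins and fibrillins, 1 of 7 was higher and 1 lower in Pkd1 KO and 2 of 6 were higher in Pkd2 KO. The largest called fall in Pkd1 KO was that of Ltbp1, from 10.2 ± 8.67 to 0.752 ± 0.685 CPM (log2 -3.74, SE 0.89, adjusted p = 0.0327), a gene with 2 rows.

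Genes with several rows again differed between the models. Of the 7 such genes tested in Pkd1 KO, 4 were lower and 0 higher, with a median log2 of -2.67, while of 31 genes with 1 row 7 were higher and 3 lower, with a median of 0.10. In Pkd2 KO the 6 genes with several rows had a median of 0.10, and the 31 with 1 row had a median of 0.31, with 15 higher and 2 lower. Over the 37 genes tested in both models, 6 passed as higher in both (Loxl1, Tgfb1, Tgfb2, Tgfb3, Ltbp2 and Itga5), 2 as lower in both (Adamts17 and Dcn) and 1, Fn1 with 7 rows, in opposite directions (log2 -2.96 in Pkd1 KO and 1.00 in Pkd2 KO). Dcn has 2 rows and so belongs to the genes with several rows, while Adamts17 has 1.

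**Figure D5:**
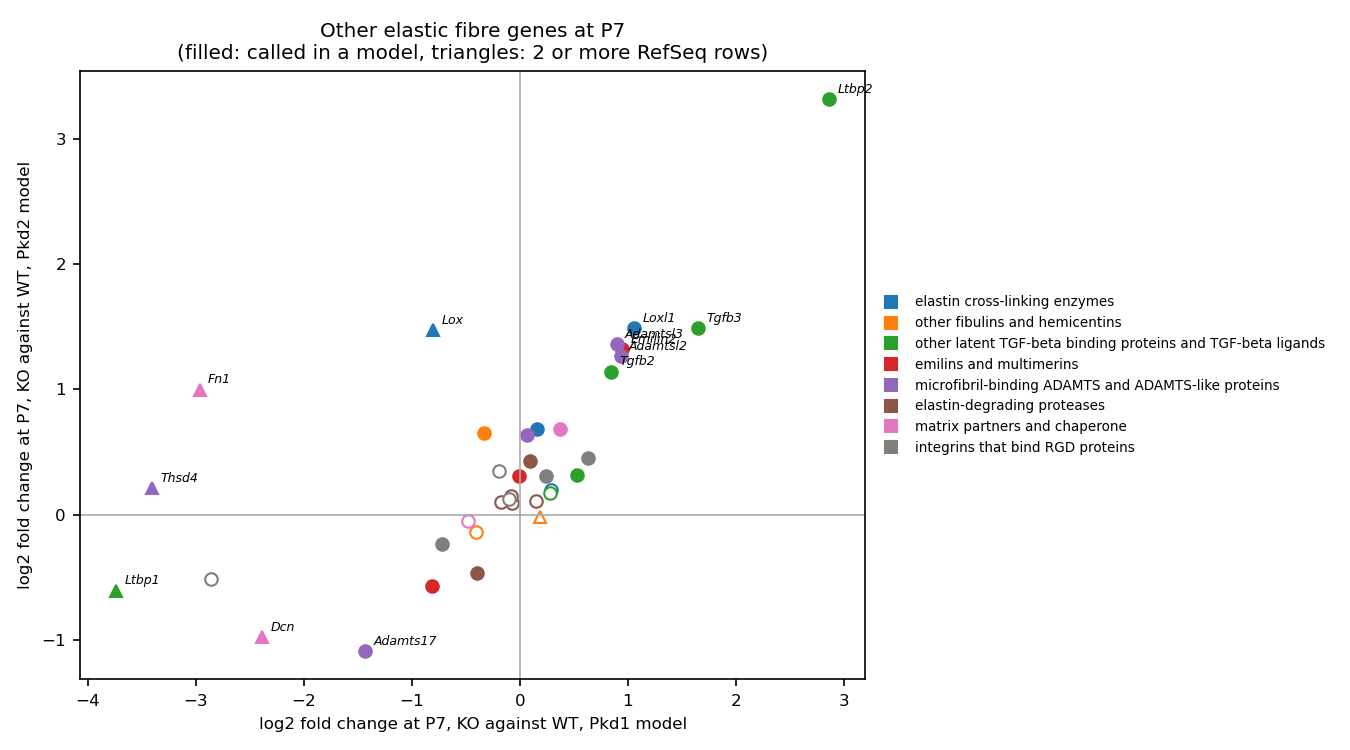
Log2 fold change of KO against WT at P7 in the Pkd1 model (horizontal) and the Pkd2 model (vertical) for the other elastic fibre genes tested in both; filled symbols passed in at least 1 model and triangles mark genes with at least 2 RefSeq rows. Ltbp2 lies farthest out in the upper right, and triangles such as Fn1 lie to the left.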

How the data were processed

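Kidney RNA-seq of 36 mice was analysed. The authors aligned reads to mm10 by TopHat2 2.1.0, after CASAVA 1.8.2, and deposited a table of raw read counts per RefSeq transcript made with HTSeq at its default options. No filter or normalization is applied in it. Symbols were found for 28974 of 29996 rows in RefSeq's annotation of GRCm38.p6. The other assays of the study were not analysed here.

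The genes and all gene lists were chosen with earlier results of these data known, so no list is independent evidence of a direction. Named genes are the 10 genes, the largest called rise and fall at P7 of the wider elastic fibre lists, the deleted genes, the Y-linked genes and the marker lists. Genes of the wider lists that passed in both models, and single markers, were named after their values were seen.

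A transcript entered the test of a model if 3 or more of its 18 libraries had 10 or more counts (12527 for Pkd1 and 12633 for Pkd2). The test was edgeR's quasi-likelihood test with TMM scaling, adjusted over all transcripts by Benjamini-Hochberg, at 0.05 and without a minimum fold change. The SE is the size of a log2 fold change divided by the root of its F value. Interactions were tested between ages and between models. CPM used TMM factors over all 36 libraries. Fits were run in R 4.3.3 with edgeR 4.0.16 and DESeq2 1.42.0. Tables and plots were made in Python 3.11.15 with pandas 2.3.3 and, for plots, matplotlib 3.10.9.

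Library totals of 7179152 to 15850818 counts set the depth, and p-values measure the spread between libraries, 1 mouse each. Replicate numbers come from the labels. Libraries with the same number deviated together in Pkd1 kidneys at P1, with correlations of 0.35, 0.21 and 0.52 between the deviations of KO and WT, and not in all pairs elsewhere. There a fit with the number as a block also called 0 of the 9 genes. Counts were also simulated from the means and spread of the Pkd2 libraries at P1 and P7 (12633 transcripts), with known changes in KO at P7. On these, edgeR recovered 89% of 2-fold and 100% of 4-fold changes with 13 false calls, and DESeq2 93% and 100% with 45. The changes were placed only in transcripts above a minimum count, and no sex difference or adrenal tissue was simulated. These rates therefore do not cover low rows or the Pkd1 libraries. Alternatives were DESeq2, RLE factors, no low-count filter, a minimum of 2-fold, GC and length correction, a replicate block, one fit of the 18 libraries of a model, a covariate for Y-linked counts, the rows of a gene summed, and each library left out.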

Additional observations from a re-analysis of the deposited data

Results flagged for a closer look

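In the Pkd1 model the KO effect on 3 of the genes differed between P1 and P7 in edgeR's interaction test. The difference, P7 minus P1 on the log2 scale, was 1.28 for Eln, 1.31 for Mfap4 and 2.29 for Efemp1. At P1 itself the KO libraries of all 3 genes overlapped the WT libraries. The log2 fold change of Efemp1 was -0.96 at P1 and 1.33 at P7, so part of its difference came from P1. KO kidneys of the Pkd1 model had Y-linked counts in 0 of 3 libraries at P1 and 3 of 3 at P7, and WT kidneys in 2 of 3 and 0 of 3, so sex moved with the tested difference. In the Pkd2 model the same differences were 1.44, 0.93 and 0.49 and did not pass with all libraries. Without Pkd2 WT replicate 2 at P3, a library with adrenal markers, Eln and Mfap4 passed there too (adjusted p = 0.0303 and 0.0294 by edgeR). Whether the 2 models differ in this respect was not tested. Single libraries that stand apart were not sought within groups, since each group has 3 libraries.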

How the results depend on the processing

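Over the single genes and the alternatives run, including each library left out, 1693 values kept their side of the threshold, 38 passed in addition and 60 no longer passed. The 1693 include values of genes that were not called in the first place, as at P1 and P3. The 60 can come only from called genes, so the share of calls lost was larger than these totals show. No called value changed direction. Counts of genes called are out of 9. DESeq2 called 2 in Pkd1 KO at P3, 1 in Pkd2 KO at P1, 1 at P3, 1 for the change of the Pkd2 KO effect with age and 2 between models. Over all transcripts at P7 DESeq2 called 2745 in Pkd1 KO, where edgeR called 1686. With a minimum of 2-fold, 3 genes passed in Pkd2 KO at P7. With Y-linked counts as a covariate in one fit of all 18 Pkd1 libraries, 0 passed in Pkd1 KO at P7 (6 of all 12527 transcripts), with log2 values of 0.44 for Eln, 1.10 for Mfap4, 1.36 for Efemp1 and -0.91 for Ltbp4. The same covariate left 2 for Pkd1 WT age and 0 for the change of the Pkd1 KO effect with age (228 and 0 of all transcripts). It could not be fitted within Pkd1 P3 or P7. In the Pkd1 fits above it varied within a group only among WT kidneys at P1, so their losses of calls cannot separate sex from KO or age. Without the libraries with adrenal markers, an alternative chosen after the data were seen, 2 passed in Pkd1 KO at P7 (Mfap4 and Efemp1), 4 in Pkd2 KO at P7, 4 for Pkd2 WT age (Fbn1 was gained), 2 for the change of the Pkd1 KO effect with age and 1 for the change of the Pkd2 KO effect with age. At P7 this left 457 of 12527 transcripts called in Pkd1 KO and 904 of 12633 in Pkd2 KO, against 1686 and 1776 with all libraries. GC and length correction turned the Pkd1 P7 split over all transcripts from 792 higher and 894 lower to 1163 and 917. With 1 library left out, counts ran from 0 to 6 in Pkd1 KO at P7 (0 without WT replicate 1, 6 without WT replicate 3), 4 to 7 in Pkd2 KO at P7, 0 to 1 in Pkd1 KO at P3, 2 to 5 and 2 to 4 for Pkd1 and Pkd2 WT age, 2 to 4 and 0 to 2 for the Pkd1 and Pkd2 change with age, and 0 to 3 between models. Calls over all transcripts ran from 156 to 3191 in Pkd1 KO at P7 and from 667 to 2059 in Pkd2 KO. For Pkd1 KO at P3 they ran from 0 to 19, and for Pkd1 and Pkd2 WT age from 1374 to 2567 and from 1099 to 3470. They ran from 314 to 2182 and from 89 to 338 for the Pkd1 and Pkd2 change with age, and from 0 to 1449 between models.

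With the replicate number as a block, the counts were 3 in Pkd1 KO at P7 (Ltbp4 was lost, adjusted p = 0.100) and 6 in Pkd2 KO at P7, where Ltbp4 was lost (adjusted p = 0.0533) and Fbln1 gained. They were 0 at P1 and P3, 4 and 3 for WT age, 3 and 0 for the change with age and 0 between models. Over all transcripts the block called 704 in Pkd1 KO and 1515 in Pkd2 KO at P7, and 2329 and 2048 for Pkd1 and Pkd2 WT age. Beyond model and day, KO and WT libraries with the same number share only that number in the labels, in Pkd1 at P1 as elsewhere.

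Low counts limit Mfap2 and Ltbp4, whose rows hold at most 6 and 107 counts per library. Reads shared between the rows of each gene were left out of these counts.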

Other observations

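Fbn1 and Efemp1 were the 2 of 9 tested genes whose KO libraries lay above all WT libraries in Pkd2 kidneys at P1, as did 5.65% of all transcripts. Fbn1 had 246, 252 and 292 CPM in WT and 300.3, 362 and 299 CPM in KO. The Fbn1 difference did not pass edgeR's test. Among the marker lists not described above, at P7 in edgeR's test, 1 of 2 tested thick ascending limb markers and 1 of 4 podocyte markers were lower in Pkd1 KO and 0 in Pkd2 KO. Of 3 tested leukocyte markers 0 passed in Pkd1 KO and 2 were higher in Pkd2 KO. Of 5 urothelial markers 0 passed in either model, and of 2 tested adipocyte markers 1 was higher in each. Over all transcripts at P7, 13.5% passed in Pkd1 KO and 14.1% in Pkd2 KO.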
